A study of Mus musculus with 48 samples.

Results

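The genes described here encode the nuclear subunits of oxidative phosphorylation, measured in whole heart, liver, spleen and lung of A/J and C57BL/6J mice. A gene was a member if a probe set with 1 gene symbol had a symbol starting with Nduf, Uqcr or Atp5, or with Cox followed by a digit from 4 to 8, or was Sdha, Sdhb, Sdhc or Sdhd. This gave 71 of the 8251 genes that the platform annotation names with 1 symbol: 29 subunits of complex I, 4 of complex II, 7 of complex III, 14 of complex IV, 14 of complex V, and 3 genes that are not core subunits (the complex I assembly factors Ndufaf1 and Ndufaf4, and Cox7a2l). Each gene was read from its brightest probe set over the 48 arrays. The mitochondrial genome encodes further subunits of complexes I, III, IV and V, which the symbol rule does not cover. The symbol rule uses no measured value beyond the choice among probe sets, but it was chosen with earlier results of these data known.

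Oxidative phosphorylation takes place in the inner mitochondrial membrane. Complex I takes electrons from NADH and complex II from succinate, and both pass them through ubiquinone to complex III, then through cytochrome c to complex IV, which reduces oxygen; the proton gradient built on the way drives ATP synthesis by complex V. The heart is rich in mitochondria and depends on this route for contraction, the liver uses it beside gluconeogenesis and ketogenesis, and for several complex IV subunits mammals have separate genes for heart and skeletal muscle on one side and for most other tissues, liver included, on the other.

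The 16 groups were the 4 tissues of the 2 strains, A/J and C57BL/6J, at time 1 and time 2, with 3 arrays in each. All mice were males aged 3 months and described as littermates, which for 2 inbred strains can hold only within a strain. The labels name no treatment, transgene or other allele, and they do not say what time 1 and time 2 stand for. Each array received labelled RNA from about 20 µg of total RNA of 1 tissue and reports 12422 probe sets after 66 control probe sets were set aside. The values are on the log2 scale, ran from 4.25 to 14.72, and had medians between 8.87 and 9.02 per array, so that a difference of 1 is a factor of 2 in signal.

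The arrays fell into 4 runs by their labels: all arrays of time 2 were 1 run, and at time 1 liver and lung, spleen, and heart were 3 others. Tissues were therefore compared at time 2, with 6 arrays per tissue, and strains within a run, whereas time and run cannot be told apart. The marker genes of each tissue matched its label: the mean of 12 measured cardiomyocyte markers was 13.50 to 13.90 in heart, 7.98 to 8.20 in liver, 7.80 to 8.12 in spleen and 8.99 to 10.60 in lung, and hepatocyte markers, lung epithelial markers and B and T cell markers were each highest in liver, lung and spleen. In 5 spleen arrays and 1 liver array the mean of 7 markers of exocrine pancreas reached 12.64 to 13.50, against 10.18 to 10.91 in the other arrays of those tissues. The mean of 11 measured hepatocyte markers was 8.18 to 9.60 in the lungs of time 1 and 7.74 to 8.20 in those of time 2. The part of these markers in the results of lung was not tested. In 2 A/J hearts of time 1 the signal of Gapdh was 1.34 and 1.41 higher at its 3′ than at its 5′ probe set, against 0.10 to 0.30 in the other 4 hearts of that time. In whole tissue, fewer cells of a type and less RNA per cell cannot be told apart. The p-values measure only the spread between these animals.

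The heart was the tissue with the highest signal for nearly every member. In 55 of the 71 genes (77.5%) all 12 heart arrays, of both strains and times, lay above all 36 arrays of the other tissues, an order that 4.56% of all probe sets showed. It held for 25 of 29 genes of complex I, 4 of 4 of complex II, 7 of 7 of complex III, 8 of 14 of complex IV, 11 of 14 of complex V and 0 of the 3 other genes. By tissue mean the heart was first for 61 genes (85.9%, against 26.3% of all probe sets), and heart first with liver second was the order of 56 genes (78.9%, against 15.3%).

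At time 2, 64 of the 71 members were higher in heart than in liver and 2 were lower at an adjusted p below 0.05 (limma with Benjamini-Hochberg adjustment over all 12422 probe sets), where 34.5% of all probe sets were higher and 22.3% lower. The median difference over the members was 1.06, against 0.06 over all probe sets. Against spleen 63 were higher and 2 lower (37.3% and 29.8% of all), with a median of 1.61, and against lung 66 were higher and 2 lower (39.2% and 29.3% of all), with a median of 1.64. The counts were nearly the same after quantile normalization, which gave 63 higher in heart than liver, 64 than spleen and 67 than lung.

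**Figure D1:**
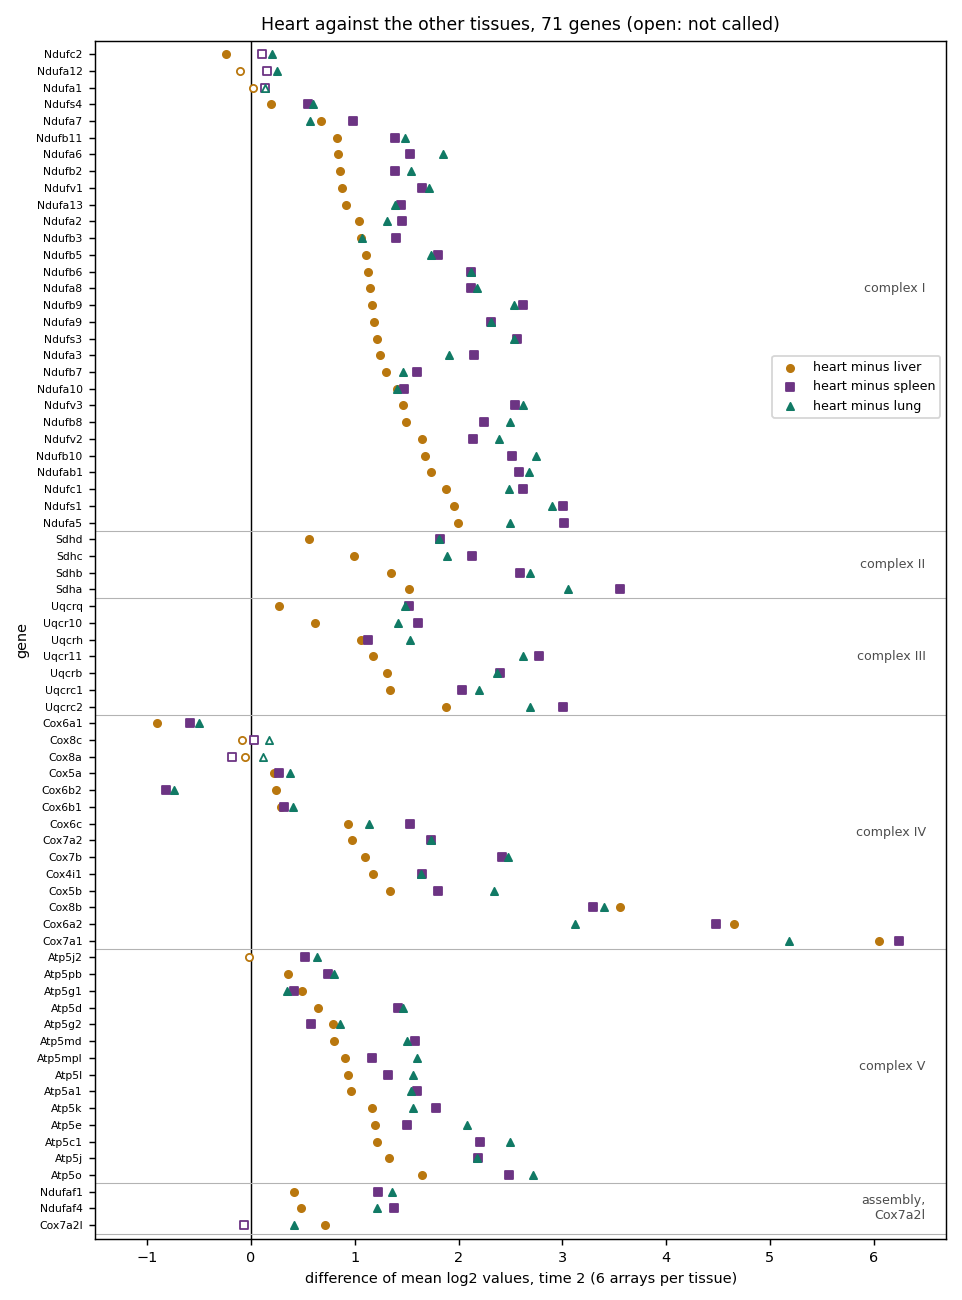
Difference of mean log2 values at time 2 between heart and liver (circles), spleen (squares) and lung (triangles) for each of the 71 genes, ordered within each complex by the difference from liver; filled symbols had an adjusted p below 0.05. Most genes lie between 0 and 3 to the right of the line of no difference, Cox7a1, Cox6a2 and Cox8b lie far to the right, and Cox6a1 lies to the left in all 3 comparisons.

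In complex I, the entry point for electrons from NADH, 26 of 29 genes were higher in heart than in liver and 1 was lower, with a median of 1.14. Ndufa5, an accessory subunit, had the largest difference. Its 6 heart arrays of time 2 ran from 14.05 to 14.22 with a median of 14.13, the liver from 11.85 to 12.36 with a median of 12.19, the spleen from 10.93 to 11.39 with a median of 11.08, and the lung from 11.34 to 11.88 with a median of 11.65. The lung overlapped with both liver and spleen, the heart stood clear of all 3, and it exceeded the liver by 2.00 ± 0.07 (SE), a 3.99-fold difference (adjusted p = 2.66e-17). Its heart signal lay near the top of the arrays' range, so this fold may be an understatement. Ndufs1, a core subunit that carries iron-sulfur clusters in the arm that oxidises NADH, exceeded liver, spleen and lung by 1.96, 3.00 and 2.90. At the other end Ndufc2, an accessory subunit of the membrane arm, was lower in heart than in liver by 0.24 ± 0.08 (adjusted p = 0.014), a call lost without the second A/J heart of time 2.

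Complex II, succinate dehydrogenase, also belongs to the citric acid cycle, and its 4 genes were all higher in heart than in each other tissue. The median differences were 1.17 from liver, 2.36 from spleen and 2.29 from lung. Sdha, the flavoprotein that oxidises succinate, ranged from 11.86 to 12.22 (median 12.01) in heart, 10.24 to 10.72 (median 10.45) in liver, 7.83 to 8.84 (median 8.54) in spleen and 8.68 to 9.16 (median 9.03) in lung. Heart and liver each stood clear of every other tissue, while spleen and lung overlapped. The heart was 11.8-fold above spleen (3.56 ± 0.13, adjusted p = 2.48e-17) and the liver 4.09-fold above spleen. Sdhd, a membrane anchor, had the smallest difference from liver, 0.56.

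The 7 genes of complex III, which passes electrons from ubiquinol to cytochrome c, were all higher in heart than in liver, with a median of 1.17. Uqcrc2, one of the core proteins on the matrix side, led: its heart arrays ran from 13.37 to 13.66 (median 13.47), against 11.31 to 11.83 (median 11.64) in liver, 10.17 to 10.69 (median 10.50) in spleen and 10.49 to 11.20 (median 10.78) in lung. The heart and the liver did not overlap with any other tissue, and the heart exceeded liver by 1.88 ± 0.08 and spleen by 3.01. Uqcrq, a small subunit, had the smallest difference from liver, 0.27, but its heart arrays at time 2 were among the brightest values on the arrays (group mean up to 14.40). Near the top of the range a difference in signal may understate the difference in transcript.

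In complex V, 13 of the 14 ATP synthase genes were higher in heart than in liver and none was lower, with a median of 0.92. Atp5o, the stalk subunit that ties the catalytic head to the membrane part, spanned 13.50 to 13.80 (median 13.65) in heart, 11.77 to 12.12 (median 12.05) in liver, 10.76 to 11.59 (median 11.23) in spleen and 10.56 to 11.22 (median 10.91) in lung. The heart and liver arrays stood apart from all others, with differences from heart of 1.65 ± 0.08 for liver, 2.48 for spleen and 2.72 for lung. Atp5j2, subunit f of the membrane part, differed by -0.02 between heart and liver at time 2. It was called lower in heart at time 1 alone (-0.35, adjusted p = 3.37e-05 in limma) and over both times (-0.19, adjusted p = 0.00502). The genes for subunit c, the rotor ring, were among the flatter ones: Atp5g1 was higher in heart than in liver, spleen and lung by 0.49, 0.42 and 0.35, and Atp5g2 by 0.79, 0.58 and 0.86. At time 1 alone the Atp5g1 difference between heart and liver was 0.011 (adjusted p = 0.862), so its call there rests on time 2.

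Complex IV, cytochrome c oxidase, had the widest range. Of its 14 genes 11 were higher in heart than in liver and 1 was lower, the median was 0.95, and the differences ran from -0.90 for Cox6a1 to 6.05 for Cox7a1. Both ends of that range are isoform genes. Cox6a2, Cox7a1 and Cox8b are the forms of heart and skeletal muscle, and Cox6a1, Cox7a2 and Cox8a the forms of most other tissues. For comparison, Cox4i1, the ubiquitous form of the regulatory subunit IV, was higher in heart by 1.17, 1.64 and 1.64 against liver, spleen and lung.

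Cox7a1 had the largest difference among the members. At time 2 it ranged from 12.74 to 13.02 (median 12.87) in heart, 6.76 to 6.88 (median 6.81) in liver, 6.44 to 6.87 (median 6.58) in spleen and 7.14 to 8.03 (median 7.81) in lung. The lung lay above liver and spleen without overlap, and the heart lay far above all 3. The heart exceeded liver 66.4-fold (6.05 ± 0.11, adjusted p = 8.62e-23), spleen 75.5-fold and lung 36.4-fold.

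Cox6a2 was at 14.19 to 14.33 (median 14.25) in heart, 9.38 to 9.76 (median 9.60) in liver, 9.59 to 10.03 (median 9.71) in spleen and 10.98 to 11.56 (median 11.05) in lung. As with Cox7a1, the lung arrays formed an intermediate level that no liver or spleen array reached. Its heart signal lay near the top of the arrays' range, as did that of the cardiac myosin Myh6 (14.23 to 14.33 over the 12 hearts), so the folds from heart are given as lower bounds. The heart was at least 25.2-fold above liver (4.66 ± 0.08, adjusted p = 3.71e-23), at least 22.3-fold above spleen and at least 8.69-fold above lung, and the lung was 2.91-fold above liver (adjusted p = 5.65e-14) and 2.57-fold above spleen (adjusted p = 9.38e-13).

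Cox8b was at 13.71 to 13.81 (median 13.75) in heart, 10.11 to 10.32 (median 10.20) in liver, 10.29 to 10.70 (median 10.46) in spleen and 10.11 to 10.54 (median 10.43) in lung. Here the lung had no level of its own, since its range overlapped with both liver and spleen. The heart stood 11.8-fold above liver (3.56 ± 0.07), 9.79-fold above spleen and 10.6-fold above lung. A further Cox8b probe set gave larger differences, 4.97, 5.30 and 4.50, and put liver above spleen by 0.33 where the first put it below by -0.27.

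The partner isoforms did not share this pattern. Cox6a1 was lower in heart, at 12.59 to 12.76 (median 12.71), than in liver, at 13.34 to 13.91 (median 13.59), with spleen at 12.71 to 13.62 (median 13.35) and lung at 12.68 to 13.56 (median 13.30). Heart and liver did not overlap, and the liver was 1.87-fold higher (heart minus liver -0.90 ± 0.10, adjusted p = 3.18e-08). Cox7a2 was higher in heart, like the other subunits, by 0.98 against liver, 1.74 against spleen and 1.73 against lung. Cox8a was dim and flat, with tissue means between 6.55 and 6.85 and a heart minus liver difference of -0.05 (adjusted p = 0.634).

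**Figure D2:**
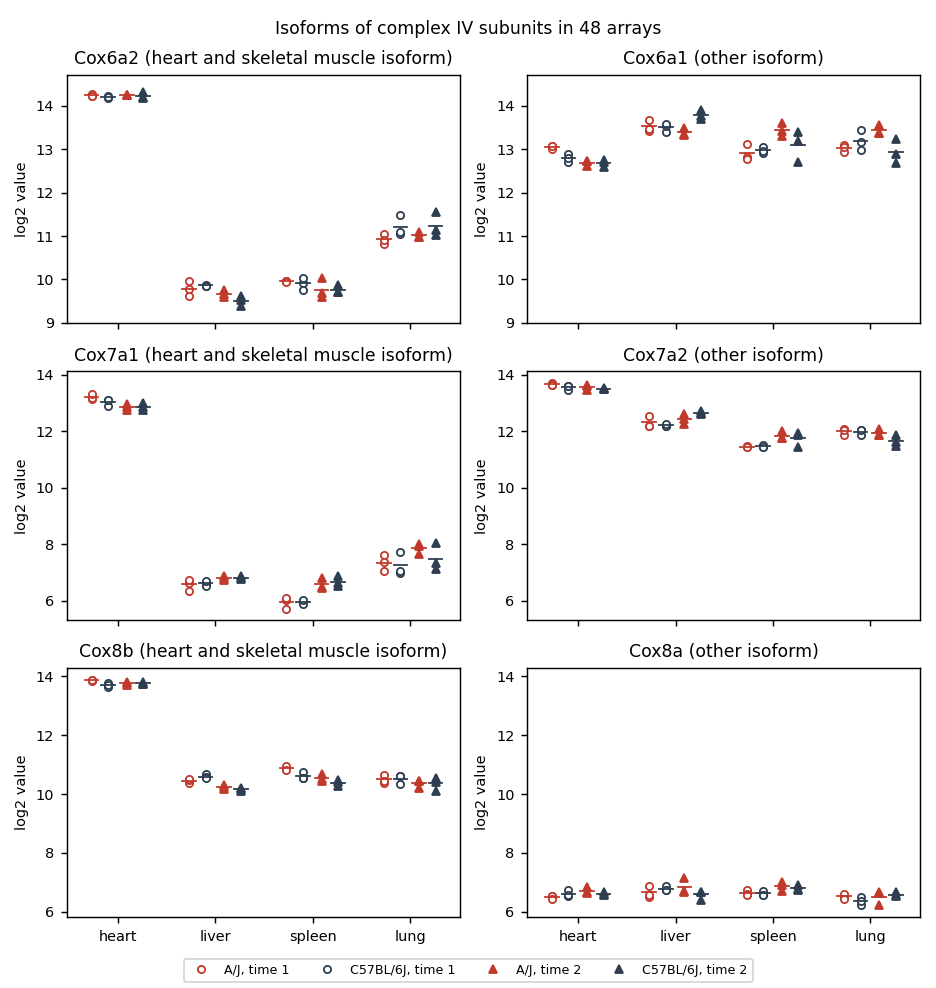
log2 value of the muscle isoforms (left) and their partner isoforms (right) on each of the 48 arrays, by tissue, with strain as colour, time as open circles (1) or filled triangles (2), and short lines at the mean of each group of 3. The heart lies above all other tissues in the left column, the lung holds a middle level for Cox6a2 and Cox7a1 but not for Cox8b, and Cox6a1 is lower in heart than in liver.

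The change in balance was tested with the difference of the 2 isoforms on the same array, in an exact permutation test over the 6 arrays per tissue, stratified by strain (400 arrangements, smallest possible p 0.005, 2-sided, adjusted over 18 comparisons). Cox6a2 over Cox6a1, whose heart values share the limit at the top of the range, was higher in heart than in liver by 5.56, than in spleen by 5.07 and than in lung by 3.62 (adjusted exact p = 0.0075 each). Cox7a1 over Cox7a2 was higher by 5.08, 4.50 and 3.45, and Cox8b over Cox8a by 3.61, 3.47 and 3.29 (adjusted exact p = 0.0075 each). Because the Cox8a probe set was dim and flat, the Cox8b over Cox8a result largely repeats the tissue difference of Cox8b itself. The balance also differed between lung and liver: it was lower in liver by 1.95 for Cox6a2 over Cox6a1 (liver minus lung -1.95) and by 1.63 for Cox7a1 over Cox7a2 (-1.63; adjusted exact p = 0.0075 each). Between strains within a tissue none of 12 such comparisons passed, with 1 at an unadjusted exact p below 0.05 and the lowest adjusted exact p 0.24.

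The promoters of these isoforms are shown because the balance within the pairs differed between heart and the other tissues, with Sdhb as an example of a subunit that was higher in heart without a muscle isoform; Cox6a2 was not among the genes matched to a window. The windows are RefSeq sequence of build GRCm38.p6, 250 bases before to 50 bases after the start of transcription, 5′ to 3′ on the strand of the gene. They lie at chr7:30183921-30184220 on the plus strand for Cox7a1, chr7:140900397-140900696 on the minus strand for Cox8b, chr5:115348909-115349208 on the minus strand for Cox6a1, chr9:79759804-79760103 on the minus strand for Cox7a2, chr19:7217567-7217866 on the minus strand for Cox8a and chr4:140961021-140961320 on the plus strand for Sdhb. Capitals mark the motif letters found by a search on both strands for NRF1 (GCGCATGC), ERR (CAAGGTCA), ETS factors such as GABP (CCGGAAG), YY1 (AAGATGGC), MEF2 (CTAAAAATA), the muscle E-box (CAGCTG) and SP1 (GGGGCGGGG).
Cox7a1: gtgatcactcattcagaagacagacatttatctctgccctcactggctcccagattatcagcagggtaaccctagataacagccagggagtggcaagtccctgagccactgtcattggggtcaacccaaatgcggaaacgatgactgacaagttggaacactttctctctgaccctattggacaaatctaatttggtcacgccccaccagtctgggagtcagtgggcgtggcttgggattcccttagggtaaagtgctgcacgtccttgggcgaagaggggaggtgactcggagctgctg
Cox8b: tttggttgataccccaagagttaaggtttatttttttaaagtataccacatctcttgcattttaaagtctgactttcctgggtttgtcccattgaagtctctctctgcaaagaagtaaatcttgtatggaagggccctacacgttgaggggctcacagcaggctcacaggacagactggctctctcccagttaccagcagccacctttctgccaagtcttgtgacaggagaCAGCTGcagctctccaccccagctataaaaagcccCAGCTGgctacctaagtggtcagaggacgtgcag
Cox6a1: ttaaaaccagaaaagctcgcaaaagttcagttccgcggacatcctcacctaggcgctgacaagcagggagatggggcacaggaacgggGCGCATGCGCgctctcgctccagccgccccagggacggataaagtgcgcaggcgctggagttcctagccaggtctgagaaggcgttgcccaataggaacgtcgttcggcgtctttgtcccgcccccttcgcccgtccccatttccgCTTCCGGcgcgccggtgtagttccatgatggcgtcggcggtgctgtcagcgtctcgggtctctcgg
Cox7a2: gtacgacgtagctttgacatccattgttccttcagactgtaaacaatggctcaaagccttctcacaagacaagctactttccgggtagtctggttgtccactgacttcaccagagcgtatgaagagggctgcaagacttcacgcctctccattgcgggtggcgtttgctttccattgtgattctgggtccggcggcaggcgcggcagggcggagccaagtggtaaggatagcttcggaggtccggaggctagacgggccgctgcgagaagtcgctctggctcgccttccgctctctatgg
Cox8a: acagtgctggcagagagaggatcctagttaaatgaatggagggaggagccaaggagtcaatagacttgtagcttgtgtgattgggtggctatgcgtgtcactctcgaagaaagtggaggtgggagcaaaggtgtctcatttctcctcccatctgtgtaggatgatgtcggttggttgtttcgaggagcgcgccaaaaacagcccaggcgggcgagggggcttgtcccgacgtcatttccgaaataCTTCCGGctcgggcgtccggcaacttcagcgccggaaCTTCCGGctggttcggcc
Sdhb: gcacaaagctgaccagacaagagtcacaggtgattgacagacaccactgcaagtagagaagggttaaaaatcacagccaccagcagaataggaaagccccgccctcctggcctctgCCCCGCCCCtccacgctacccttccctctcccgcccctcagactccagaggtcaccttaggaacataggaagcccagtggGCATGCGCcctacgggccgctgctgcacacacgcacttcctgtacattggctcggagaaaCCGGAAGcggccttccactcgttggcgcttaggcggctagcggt
The Cox8b window held the E-box at 2 places and the Cox6a1 window overlapping NRF1 letters and an ETS match. The Cox8a window held 2 ETS matches, the Sdhb window had NRF1, ETS and SP1 letters, and the Cox7a1 and Cox7a2 windows had none of the 7 motifs.

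Windows were found for 58 of the 71 genes, 63 in all, of 32851 in the table. NRF1 and GABP are known activators of nuclear genes for the respiratory chain, and ERR factors act with Ppargc1a. NRF1 letters were in 10 of the 63 windows (15.9%) against 2.71% of all windows, ETS letters in 16 (25.4%) against 8.86%, YY1 letters in 8 (12.7%) against 2.75%, SP1 letters in 11 (17.5%) against 11.4%, and ERR letters in 2 (3.17%) against 1.56%. The muscle E-box was in 4 (6.35%) against 16.3%, and MEF2 letters were in 0 (0%) against 0.517%. No match of one motif overlapped with a match of another. A match describes letters in the window and no more.

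The remaining isoform genes of complex IV moved less. Cox6b1, the widespread form of subunit VIb, was higher in heart by 0.29, 0.32 and 0.40 against liver, spleen and lung, but at time 1 alone it was lower in heart than in liver (-0.20). Cox8c and Cox6b2 are known as testis forms. Cox8c differed by -0.08, 0.03 and 0.17 and passed in none of the 3. Cox6b2 was 1.77-fold lower in heart than in spleen (-0.82) and 1.67-fold lower than in lung (-0.74), and its strain difference in spleen is described later.

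The 16 genes outside the pattern of 12 hearts above 36 other arrays were Atp5g1, Atp5j2, Atp5pb, Cox5a, Cox6a1, Cox6b1, Cox6b2, Cox7a2l, Cox8a, Cox8c, Ndufa1, Ndufa12, Ndufaf1, Ndufaf4, Ndufc2 and Ndufs4. Their probe sets were dimmer than those of the 55 others. On a scale of percentiles of mean signal over all probe sets their median was 47.3 (12.1 to 99.2), against 96.0 (37.1 to 99.5). That mean includes the 12 hearts, so genes chosen for high heart signal are placed higher on this scale by the choice itself. A probe set's signal is not a transcript level, and the part of dim signal in the missing difference was not tested. Cox7a2l, which promotes the joining of complexes III and IV into supercomplexes, was highest in spleen by mean and 1.72-fold higher there than in liver (liver minus spleen -0.78 ± 0.07, adjusted p = 7.98e-10).

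Further probe sets of the same genes mostly gave the same direction, with exceptions. Of 27 such probe sets, 21 were called between heart and liver, 16 of them higher in heart, and 4 went against the probe set that stood for the gene. Those were 2 of Cox6c (-0.29 and -1.88, against 0.93), 1 of Ndufb2 (-0.28, against 0.86) and 1 of Cox6b2 (-0.34, against 0.24). Against spleen 19 were called and 17 were higher, and against lung 21 and 20, with no opposite call in either. Elsewhere Cox6c (lung minus spleen -0.29 against 0.39), Ndufv2 (0.23 against -0.25) and Cox6b2 (liver minus spleen 0.17 against -1.06, liver minus lung 0.45 against -0.98) had probe sets with opposite calls.

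The liver came second. It exceeded spleen in 57 members and fell below it in 4 (30.1% and 31.3% of all probe sets), with a median of 0.64, and exceeded lung in 56 and fell below it in 4 (34.4% and 31.7%), with a median of 0.68. Complex IV was again apart, with 6 of 14 genes higher in liver than in spleen and a median of 0.15, against medians of 0.70 for complex I, 1.25 for II, 1.09 for III and 0.58 for V. After Sdha (2.03), the largest liver excess over spleen was in Uqcr11 (1.60), a small subunit of complex III, Ndufb9 (1.45), an accessory subunit of complex I, and Ndufs3, a core subunit of complex I (1.35). Cox7b, a small subunit of complex IV, was 1.32 higher in liver than in spleen and 1.38 higher than in lung.

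Lung and spleen were close. Of the 71 genes 12 were higher in lung and 15 lower (23.8% and 29.3% of all probe sets), and the median was -0.05. The largest excess in lung was in Cox6a2 (1.36) and Cox7a1 (1.05), followed by Ndufa5 (0.52) and Sdha (0.50). The largest excess in spleen was in Atp5e, the epsilon subunit of ATP synthase (-0.58), Cox5b (-0.54), Cox7a2l (-0.48) and Atp5mpl, a small membrane subunit of ATP synthase (-0.43).

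Cardiomyocyte transcripts were present in the lung samples. Of the 2 muscle isoforms with a middle level in lung, Cox7a1 varied with them, and Cox6a2 did so by linear but not by rank correlation. All 12 measured markers of 13 entered a mean, which was 8.99 to 10.60 in the 12 lung arrays and highest in a C57BL/6J lung of time 2. Myl7, a myosin light chain of atrial muscle, was 10.80 to 12.41 in lung and 7.62 to 8.69 in liver and spleen, and Myh6, the main cardiac myosin heavy chain of the adult mouse, was 8.59 to 10.64 in lung and 5.72 to 6.60 in liver and spleen. Not all markers were raised: the medians of Csrp3, Myl2 and Mybpc3 were 8.63, 7.43 and 9.94 in lung, below 9.31, 7.61 and 9.96 in liver. The other measured markers had a higher median in lung than in liver. Across the 12 lung arrays Cox7a1 had r = 0.81 with this mean (permutation p = 0.00017, adjusted 0.00051 over 3 genes) and rho = 0.90 (permutation p = 0.00017). Without the 2 arrays farthest from the median r was 0.78, and within time 1 and time 2 it was 0.86 and 0.72 (6 arrays each, exact permutation p = 0.00833 and 0.0833).

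For Cox6a2 r was 0.79 (permutation p = 0.0055, adjusted 0.00825) but rho was 0.55 (permutation p = 0.0699); without the 2 farthest arrays r was 0.68, and within the times it was 0.90 and 0.87 (exact permutation p = 0.0389 and 0.0569). For Cox8b r was 0.23 and rho 0.23 (permutation p = 0.484 and 0.471). Without the 2 farthest arrays its r was 0.14, and within the times it was 0.56 and 0.64. The mean of 11 skeletal muscle markers also varied in lung, from 7.98 to 9.13, against 8.02 to 8.38 in liver and 7.95 to 8.24 in spleen. The part of heart or skeletal muscle cells in the lung level of these genes was not tested.

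**Figure D3:**
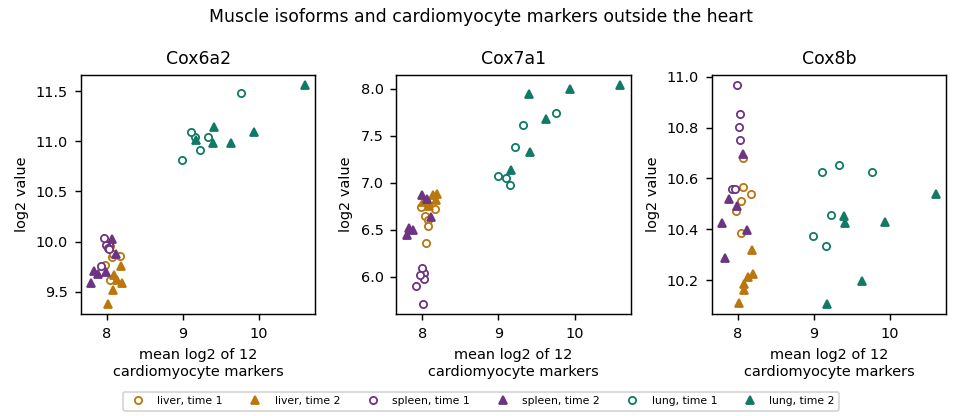
log2 value of Cox6a2, Cox7a1 and Cox8b against the mean log2 value of 12 cardiomyocyte markers on the 36 arrays of liver, spleen and lung. Lung arrays spread from 8.99 to 10.60 on the horizontal axis, and Cox6a2 and Cox7a1 are higher there than in liver and spleen, whose arrays crowd between 7.80 and 8.20.

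Genes that work beside the respiratory chain were counted in lists of pathway members, beside 34.5% of all probe sets higher in heart than in liver and 22.3% lower. Of 17 measured genes of the citric acid cycle and pyruvate dehydrogenase 14 were higher in heart than in liver and 2 lower, with a median of 1.68. Idh2 (2.67) and Cs, citrate synthase (2.40), led, while Pcx, the pyruvate carboxylase of gluconeogenesis, was lower in heart (-2.46). Of 11 electron carriers and genes of ubiquinone synthesis 9 were higher and 1 lower (median 0.55), with Cycs, cytochrome c, among the higher and Gpd2, the glycerol phosphate dehydrogenase, as the lower one (-1.03). Of 10 genes for exchange of ATP and phosphate 6 were higher and 1 lower (median 1.22). The mitochondrial creatine kinase Ckmt2 (6.88) and the muscle form of the adenine nucleotide carrier, Slc25a4 (5.38), were far above liver, while the widespread form Slc25a5 was slightly lower (-0.29).

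Of 13 measured genes of fatty acid oxidation 10 were higher in heart than in liver and 1 lower, with a median of 0.34; Acadl was at 1.86 and Cpt1a, the liver form of the carnitine transferase, at -2.54. Against spleen the same list had 11 higher and 1 lower (37.3% and 29.8% of all probe sets), with a median of 2.81. Of 16 measured regulators 7 were higher in heart than in liver and 2 lower (34.5% and 22.3% of all probe sets), with a median of 0.18. The nuclear receptor Esrra (0.95) and the coactivator Ppargc1a (0.62) were higher, Ppara (-2.03) and Yy1 (-0.57) lower, and Tfam, the factor that packages and transcribes mitochondrial DNA, differed by -0.10 (adjusted p = 0.215). Of 10 assembly and maturation factors 6 were higher and 1 lower (median 0.22), with the copper chaperone Cox17 at 1.72.

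Strain differences were few and small beside those of tissue. A/J and C57BL/6J are inbred laboratory strains, and here each difference is A/J minus C57BL/6J over both times, with 6 arrays per strain and tissue. In heart A/J exceeded C57BL/6J in 5 members and fell below it in 1 (4.57% and 2.91% of all probe sets), in liver 1 and 2 (1.54% and 2.53%), in spleen 2 and 2 (6.05% and 6.67%) and in lung 0 and 0 (2.7% and 2.52%). In lung 8 members had an unadjusted p below 0.05 (11.3%, against 18.7% of all probe sets).

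Ndufa8, an accessory subunit of complex I, had the clearest strain difference in heart. Its A/J hearts were at 12.50, 12.35 and 12.49 at time 1 and 12.42, 12.13 and 12.32 at time 2. Its C57BL/6J hearts were at 12.05, 11.99 and 12.02 at time 1 and 11.78, 11.94 and 11.84 at time 2. All 6 A/J hearts lay above all 6 of C57BL/6J, by 0.43 ± 0.05 on average, a 1.35-fold difference (adjusted p = 0.000182). The differences in liver, spleen and lung were 0.03, -0.08 and -0.07, and the strain difference varied with tissue (adjusted p = 3.55e-05). The window at chr2:36049289-36049588 on the minus strand (GRCm38.p6, RefSeq) is printed because this gene had the strongest strain result of complex I; its capitals mark E-box, SP1 and NRF1 letters.
Ndufa8: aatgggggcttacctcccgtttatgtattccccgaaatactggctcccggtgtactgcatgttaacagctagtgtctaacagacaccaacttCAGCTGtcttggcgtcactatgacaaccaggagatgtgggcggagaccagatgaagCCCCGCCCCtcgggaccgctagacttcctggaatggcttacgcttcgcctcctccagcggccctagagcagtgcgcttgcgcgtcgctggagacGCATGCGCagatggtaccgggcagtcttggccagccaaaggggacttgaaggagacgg

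The other genes called in heart had smaller differences. Atp5mpl (0.22), Sdhd (0.21), Ndufb6 (0.18) and Ndufc1 (0.18), the last 2 accessory subunits of complex I, were higher in A/J, and Ndufaf1, an assembly factor of complex I, was lower (-0.21, adjusted p = 0.0479). With quantile normalization 1 member was higher and 2 were lower, and without the 2 A/J hearts of high Gapdh 3′ signal 3 were higher. The calls of Ndufaf1, Ndufb6, Ndufc1 and Sdhd were also lost in 10, 8, 8 and 6 of the 12 fits that left out 1 heart array. At time 1 alone 57 of 71 members had a higher mean in A/J hearts (80.3%, against 48.3% of all probe sets), with a median of 0.09 that was 0.04 after quantile normalization. In these 6 hearts the mean of 5 measured lung epithelial markers of 8 was 9.61 to 10.10 in A/J and 10.29 to 11.05 in C57BL/6J, and the 3′ minus 5′ signal of Actb was -0.83 to -0.52 and -0.27 to 0.04. Neither overlapped between the strains, and their part in the strain differences of heart was not tested.

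In liver Ndufa6, an accessory subunit of complex I, was lower in A/J. Its A/J livers were at 9.74, 9.54 and 9.46 at time 1 and 9.65, 9.72 and 9.57 at time 2. Its C57BL/6J livers were at 9.87, 9.61 and 10.04 at time 1 and 10.31, 10.13 and 10.23 at time 2. The strains overlapped at time 1 and not at time 2, and the mean difference was -0.42 ± 0.09 (adjusted p = 0.0105). Ndufb10 was also lower (-0.31) and Uqcr10 higher (0.25) in A/J, the last of these losing its call in 10 of 12 fits without 1 liver array. Ndufb10 was not called with the mean over its probe sets (-0.17, adjusted p = 0.0889 in limma). At time 1 alone it was not called either (-0.28, adjusted p = 0.247).

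In spleen Cox6b2 had the largest strain difference of any member. Its A/J spleens were at 9.79, 9.47 and 9.41 at time 1 and 9.73, 10.42 and 9.85 at time 2. Its C57BL/6J spleens were at 9.26, 8.51 and 8.72 at time 1 and 8.94, 8.74 and 8.49 at time 2. Every A/J spleen lay above every C57BL/6J spleen, by 1.00 ± 0.16, a 2-fold difference (adjusted p = 0.00127). In heart, liver and lung the differences were -0.06, -0.05 and -0.04, and the variation with tissue had an adjusted p of 3.22e-07. A further Cox6b2 probe set gave 0.78 in spleen (adjusted p = 0.00138) and another -0.04 (adjusted p = 0.876). The Cox6b2 window at chr7:4753045-4753344 on the minus strand (GRCm38.p6, RefSeq) is shown for this difference, and its capitals mark SP1 letters.
Cox6b2: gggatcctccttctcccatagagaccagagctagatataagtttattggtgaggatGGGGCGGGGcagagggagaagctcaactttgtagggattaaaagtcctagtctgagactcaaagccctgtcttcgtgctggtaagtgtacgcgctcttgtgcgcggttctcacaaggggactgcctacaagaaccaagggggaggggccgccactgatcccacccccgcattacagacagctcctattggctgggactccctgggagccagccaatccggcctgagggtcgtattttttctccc

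Markers of red blood cell precursors differed between the same spleens. The mean of 7 measured markers of 9 was 11.66, 11.96 and 11.86 in A/J and 11.63, 10.39 and 11.03 in C57BL/6J at time 1. At time 2 it was 12.25, 12.51 and 12.26 in A/J and 9.95, 9.34 and 10.05 in C57BL/6J. Every A/J spleen was again above every C57BL/6J spleen, and the spleen with the highest marker mean was also the one with the highest Cox6b2. The part of these cells in the Cox6b2 difference was not tested.

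Ndufb9 (0.44) was higher and Cox7a2l (-0.29) and Atp5e (-0.43) lower in A/J spleen. C57BL/6J mice are known to carry a shortened form of the Cox7a2l protein. The 5 spleens with high pancreas markers were 2 of A/J and 3 of C57BL/6J, and without them no member passed in either direction, with 4 members at an unadjusted p below 0.05 in limma. In fits that left out 1 spleen array Cox7a2l lost its call in 8 of 12 and Atp5e in 7 of 12. Without the 5 spleens Cox6b2 differed by 0.89 (adjusted p = 0.0959), with fewer arrays in the fit; the part of pancreatic tissue in these results was not tested.

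**Figure D4:**
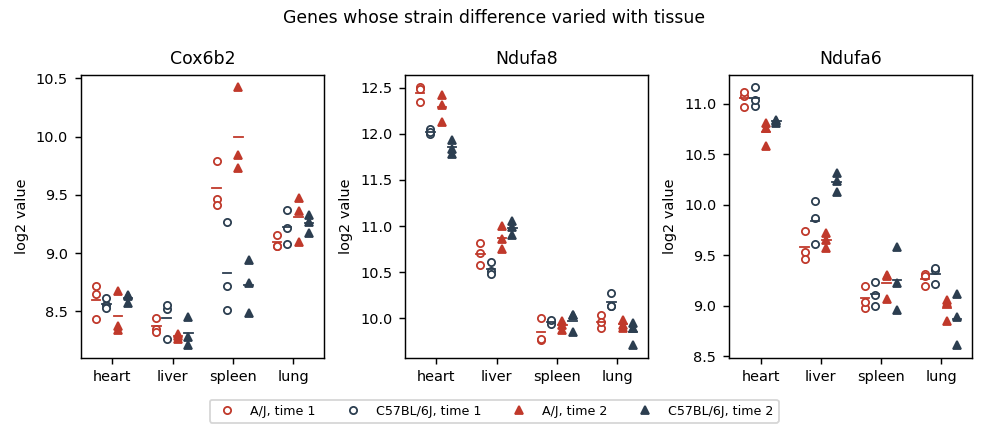
log2 value of Cox6b2, Ndufa8 and Ndufa6 on each of the 48 arrays by tissue, with strain as colour, time as open circles (1) or filled triangles (2), and short lines at group means. Cox6b2 separates the strains in spleen, Ndufa8 in heart, and Ndufa6 in liver at time 2.

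The strain difference varied with tissue for 7 of the 71 genes (9.86%), beside 18.5% of all probe sets. Besides Cox6b2, Ndufa8 and Ndufa6 these were Atp5g2, Ndufaf1, Ndufa7 and Ndufv1. With the mean over the probe sets of each gene, Atp5g2 and Ndufaf1 no longer passed (adjusted p = 0.575 and 0.0598 in limma). Atp5g2 was higher in A/J by 0.13 in heart, 0.09 in liver and 0.15 in lung but lower in spleen (-0.17), and Ndufaf1 was lower in heart (-0.21) but differed by 0.10, 0.02 and 0.05 in liver, spleen and lung. Ndufa7 differed by 0.09, -0.16, -0.13 and 0.01 in heart, liver, spleen and lung, and Ndufv1, which binds NADH and the flavin of complex I, by 0.03, 0.08, 0.16 and -0.07; its call was lost in 3 of 48 fits without 1 array.

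At each time, most called members of lung and liver were those of time 2, although no member passed the test of the difference between the times that follows. In lung at time 2, A/J exceeded C57BL/6J in 13 members and fell below it in 1 (5.85% and 4.37% of all probe sets), while at time 1 limma called none higher and 1 lower (0.877% and 1.26%), with 7 at an unadjusted p below 0.05. Of the 71 genes 53 had a higher mean in A/J lung at time 2 (74.6%, against 41.1% of all probe sets), and 18 at time 1 (25.4%, against 53.5%). The median was 0.21 at time 2 (0.14 after quantile normalization) and -0.09 at time 1. The 13 were Cox7b (0.61), Ndufv3 (0.60), Cox6a1 (0.51), Atp5mpl (0.46), Atp5o (0.41), Atp5md (0.40), Uqcrc2 (0.39), Cox4i1 (0.35), Atp5c1 (0.34), Uqcr10 (0.34), Uqcr11 (0.34), Ndufab1 (0.33) and Atp5g2 (0.29), drawn from complexes I, III, IV and V, and the 1 lower was Ndufa1 (-0.31).

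Cox7b, a small subunit of complex IV, shows the pattern in single arrays. At time 2 its A/J lungs were at 11.09, 10.83 and 11.01 and its C57BL/6J lungs at 10.57, 10.07 and 10.45. At time 1 its A/J lungs were at 10.46, 10.58 and 10.38 and its C57BL/6J lungs at 10.46, 10.15 and 10.46. The strains were separate at time 2 and overlapped at time 1. Atp5e was the 1 gene called at time 1, with A/J lungs at 10.49, 10.53 and 10.29 and C57BL/6J lungs at 11.22, 10.95 and 10.98, all above A/J (-0.61 ± 0.12, adjusted p = 0.018).

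These counts take the spread from both times together; fitted on the arrays of time 2 alone, 2 members were higher in A/J lung and 0 lower. The 3′ minus 5′ signal of Gapdh moved with the same groups: it was 1.36 to 1.96 in A/J lungs of time 2, 1.05 to 1.37 in C57BL/6J lungs of time 2 and 0.64 to 1.08 in the lungs of time 1. Its part in the difference was not tested.

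In liver at time 2, 1 member was higher in A/J and 10 lower (5% and 7.87% of all probe sets), and at time 1 none was called by limma (1.73% and 1.2% of all), with 5 at an unadjusted p below 0.05. The lower ones were Ndufa6 (-0.58), Ndufv3 (-0.54), Cox6a1 (-0.40), Ndufa5 (-0.38), Cox5b (-0.38), Atp5e (-0.36), Uqcrc2 (-0.36), Ndufa3 (-0.35), Ndufb10 (-0.34) and Ndufb3 (-0.29), and the higher one was Cox8c (0.36). Ndufv3, an accessory subunit of complex I, was at 9.92, 10.20 and 9.82 in A/J livers of time 2 and at 10.59, 10.30 and 10.67 in those of C57BL/6J. Ndufv3, Cox6a1 and Uqcrc2 were thus lower in A/J liver and higher in A/J lung at the same time. Over the 71 genes the liver median of -0.09 became -0.02 after quantile normalization. The mean of 7 exocrine pancreas markers was 10.46, 10.38 and 10.51 in these A/J livers and 10.27, 13.27 and 10.18 in those of C57BL/6J. The part of pancreatic tissue in these calls was not tested.

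In spleen at time 2, A/J was above C57BL/6J in 6 members and below it in 1 (8.24% and 7.78% of all), and at time 1 limma called none (1.14% and 1.78%), with 7 at an unadjusted p below 0.05. These were Cox6b2 (1.28), Ndufb9 (0.64), Ndufs1 (0.63), Uqcrb (0.44), Atp5o (0.44) and Ndufv2 (0.31), and Atp5g2 (-0.34). At that time the mean of the red cell precursor markers was 12.25 to 12.51 in A/J spleens and 9.34 to 10.05 in those of C57BL/6J, and the mean of 11 measured hepatocyte markers of 12 was 8.80 to 9.58 and 7.94 to 8.51. Both sets of markers thus separated the strains. The mean of 7 exocrine pancreas markers was 10.34, 10.19 and 10.91 in these A/J spleens and 13.50, 10.27 and 12.64 in those of C57BL/6J. The part of any of these markers in the 7 calls was not tested. In heart 3 were higher at time 1 (3.18% of all higher, 1.52% lower), namely Ndufa8 (0.42), Ndufb6 (0.26) and Ndufa9 (0.26). At time 2 Ndufa8 (0.44) and Atp5mpl (0.32) were higher and Ndufaf1 (-0.34) lower, of 2.62% and 2.61% of all.

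The difference between the times was itself tested as a strain by time interaction, and no member passed in any tissue. Among all probe sets 0.0644% and 0.322% were called in heart (higher and lower at time 2 in A/J relative to C57BL/6J), 1.01% and 3.9% in liver, 0.185% and 0.0242% in spleen, and 0.105% and 0.0725% in lung. At an unadjusted p below 0.05, limma had 4 members in heart (5.63%, against 10.7% of all probe sets), 19 in liver (26.8%, against 24%), 11 in spleen (15.5%, against 19.6%) and 33 in lung (46.5%, against 18%). The median interaction over the members was 0.30 in lung (0.25 after quantile normalization) and -0.13 in liver (-0.02). A fit over all 48 arrays together called 8 members in lung, all higher, where 1.38% of all probe sets were called higher and 0.821% lower, and 1 higher and 3 lower in spleen (5.45% and 3.6% of all). In liver the neighbouring list of fatty acid oxidation had 8 of 13 genes called lower, with a median interaction of -0.63.

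**Figure D5:**
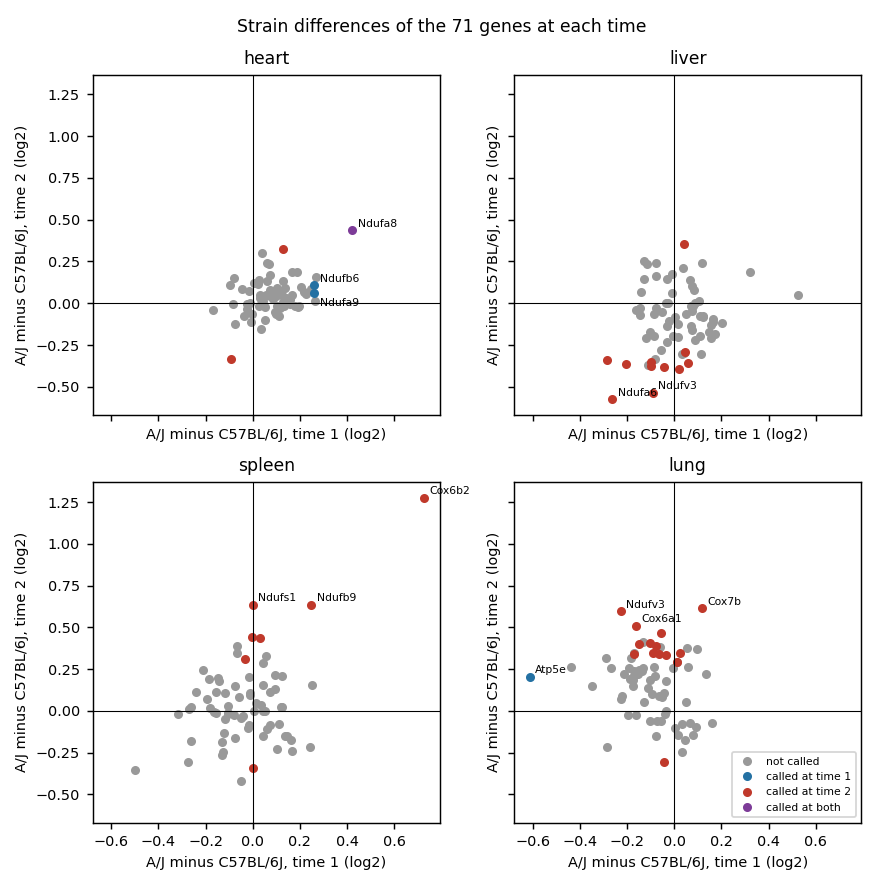
A/J minus C57BL/6J difference of mean log2 values at time 1 (horizontal) and time 2 (vertical) for the 71 genes in each tissue, coloured by the times at which the adjusted p was below 0.05. In lung most points lie above 0 at time 2 and left of 0 at time 1. In liver 10 called genes lie below 0 at time 2 and 1, Cox8c, lies above. Ndufa8 in heart is the only gene called at both times.

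Between the times, which were also different array runs, members shifted in liver and spleen more than in heart and lung. In heart 14 were higher at time 2 and 7 lower (15.7% and 19.3% of all), in liver 39 and 8 (20.2% and 30.1%), in spleen 34 and 3 (13% and 18.9%) and in lung 10 and 3 (15.8% and 18.9%). In liver the count higher fell to 18 after quantile normalization, with the median going from 0.21 to 0.07. In spleen it fell to 2 without the 5 arrays of high pancreas markers. Time and run cannot be told apart in these counts. Hepatocyte markers in lung also differed between the times, and their part in the lung counts was not tested.

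Atp5e rose most in liver (0.57) and spleen (0.69). In liver Cox7b (0.51), Ndufb6 (0.50) and Atp5mpl (0.42) followed and Cox8b (-0.32), Atp5g1 (-0.29), Cox5a (-0.27) and Ndufc2 (-0.24) were lower, and in spleen Cox7a1 (0.68), Cox7b (0.63) and Cox6c (0.61) followed and Uqcrc2 (-0.37), Cox8b (-0.28) and Ndufaf4 (-0.19) were lower. In heart Ndufa10 (0.34), Atp5j2 (0.28), Cox6b1 (0.27) and Sdha (0.23) were higher and Ndufv3 (-0.44), Ndufa6 (-0.28), Cox7a1 (-0.26) and Uqcr11 (-0.25) lower. In lung Cox6c (0.43), Atp5e (0.40), Ndufa2 (0.37) and Ndufa13 (0.36) were higher and Ndufa6 (-0.37), Ndufb8 (-0.29) and Ndufv1 (-0.17) lower, with the call of Atp5e lost in 9 of 12 fits without 1 lung array. Other probe sets of Ndufa1 in heart (-0.29 against 0.16) and Cox4i1 in lung (-0.24 against 0.28) were called in the opposite direction. With the mean over its probe sets, Cox6c in lung differed by 0.10 and was not called (adjusted p = 0.106 in limma).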

How the data were processed

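RNA of 48 samples was hybridised to Affymetrix MG-U74Av2 arrays, and the deposited values of each probe set are on a log2 scale, which was read from their range. The labels and headers do not name how the authors normalized them; no further scaling was applied. Gene names came from the platform annotation, in which 10833 probe sets had 1 symbol, 396 several and 1193 were not listed; 10 probe sets of the rule with several symbols were left out. Differences were tested with limma 3.58.1 in R 4.3.3, with p-values adjusted by Benjamini-Hochberg over 12422 probe sets and a limit of 0.05. Strain fits used the 12 arrays of a tissue with time as a term, time fits with strain as a term, tissue fits the 24 arrays of time 2, and the strain by tissue F test all 48. Depth of hybridisation is not measured, so that 3 arrays per group limit the precision. Deviations of same-numbered replicates had correlations of -0.577 to 0.363 between strains (7 of 24 above 0.1). Between tissues of a strain at time 2 they were -0.337 to 0.287 (8 of 36 above 0.1). Between the times they were -0.378 to 0.464 (8 of 24 above 0.1). The numbers were not taken to pair samples, but these correlations do not show whether same-numbered tissues shared an animal. Scripts were tested on simulated data.

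The members and lists were chosen with earlier results of these data known. Named with values were all isoform genes, up to 8 members with the smallest p for each strain result, the 4 per direction with the largest difference for tissue and time, the extreme members of each complex and those with opposite probe sets; members called at each time were named in full, which was chosen after their values were seen.

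Alternatives were quantile normalization, the mean over probe sets of a gene, leaving out dim probe sets, a trended robust prior, 1 fit over all arrays, each time alone, both times together, a replicate block, and leaving out each array or the arrays in doubt.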

Additional observations from a re-analysis of the deposited data

Results flagged for a closer look

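For 7 genes the strain difference itself differed between tissues in an F test over 48 arrays. The adjusted p values (limma with Benjamini-Hochberg adjustment) were 3.22e-07 for Cox6b2, 3.55e-05 for Ndufa8, 0.00687 for Atp5g2, 0.0139 for Ndufaf1, 0.0142 for Ndufa7, 0.0148 for Ndufa6 and 0.0266 for Ndufv1. For Cox6b2 the difference lay in spleen (1.00, against -0.06, -0.05 and -0.04 in heart, liver and lung) and for Ndufa8 in heart (0.43, against 0.03, -0.08 and -0.07 in liver, spleen and lung). Without the 8 arrays with high pancreas markers or high Gapdh 3′ signal, Atp5g2 (adjusted p = 0.1), Ndufa7 (0.15) and Ndufv1 (0.239) no longer passed, with fewer arrays in the fit. With the mean over the probe sets of each gene, Atp5g2 (adjusted p = 0.575) and Ndufaf1 (0.0598) no longer passed.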

How the results depend on the processing

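The counts of members higher in heart were within 1.5 times of those reported under every alternative run. Members lower in heart than in liver rose from 2 to 6 with both times together and to 9 at time 1 alone. Members higher in lung than in spleen rose from 12 to 24 and 31 in the same fits, and those lower went from 15 to 9 without the arrays of high pancreas markers, an alternative chosen after seeing the data, as was every other fit without arrays in doubt. The cause of these changes was not tested, beyond the smaller number of arrays in fits that leave some out. Hepatocyte markers averaged 8.18 to 9.60 in lungs of time 1 and 7.74 to 8.20 in lungs of time 2. Their part in the lung counts was not tested.

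Of the isoform balances, liver minus spleen was -0.69 for Cox6a2 over Cox6a1 and -0.31 for Cox8b over Cox8a at time 1, where both passed, and -0.16 for Cox7a1 over Cox7a2, which did not. Cox8b over Cox8a no longer passed after quantile normalization for liver minus lung (-0.21) and lung minus spleen (0.14), and the latter was -0.057 at time 1, the opposite sign. Among single genes Cox6b1 turned to -0.20 for heart minus liver at time 1, and Cox8b to 0.032 for liver minus spleen with the mean over probe sets.

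Strain counts changed in many fits. Members higher in A/J heart, 5 as reported, were 2 in 1 fit over 48 arrays, at time 1 and at time 2, 1 after quantile normalization and 3 without the 2 hearts of high Gapdh 3′ signal; those lower, 1 as reported, were 2 after quantile normalization and 0 with the mean over probe sets and at each time alone. In liver, 3 were higher and 4 lower in 1 fit over 48 arrays, 0 and 0 at time 1, 8 lower at time 2, and 0 higher without the array of high pancreas markers. In spleen, 6 and 5 were called in 1 fit over 48 arrays, 0 and 0 at time 1, 0 lower at time 2, and 0 and 0 without the pancreas arrays. In lung, 2 and 2 were called in 1 fit over 48 arrays, 2 higher at time 2, 2 lower at time 1, and 1 lower with the mean over probe sets.

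For strain by time, 1 member was lower in liver when dim probe sets were left out, with the mean over probe sets or with a trended robust prior, and 1 fit over 48 arrays called 8 higher in lung and 1 higher and 3 lower in spleen. For time, that fit gave 9 higher in heart and 23 higher and 6 lower in lung; quantile normalization gave 18 higher in liver and 6 lower in lung; without the 2 hearts 3 were lower in heart, and without the pancreas arrays 2 were higher and 0 lower in spleen.

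The replicate numbers were not taken to pair the samples. A replicate block left 1 higher and 0 lower in heart, 0 and 1 in liver and 1 and 0 in spleen, and 5 of the 7 members whose strain difference varied with tissue.

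Leaving out 1 array at a time gave 2 to 7 members higher and 0 to 1 lower for strain in heart, 0 to 1 and 2 to 6 in liver, 2 to 3 and 0 to 3 in spleen and 0 to 1 higher in lung; 0 to 1 higher and 0 to 5 lower for strain by time in liver, and 0 to 1 higher in lung and in spleen; 6 to 13 for strain by tissue; 6 to 22 higher and 3 to 5 lower for time in lung; and 1 to 2 lower in heart than in liver. Of 3642 comparisons of a named value with an alternative, 3472 kept direction and call, 166 lost the call, 2 gained it and 2 changed sign.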
